A study of Mus musculus with 10 samples.

Results

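The Cxcr4 and Cxcl12 chemokine axis was followed in mouse E11.5 metanephric mesenchyme, the cells of the early kidney into which the ureteric bud grows and branches. Its 3 genes are Cxcr4, the chemokine receptor, Cxcl12, its ligand, and Ackr3, the scavenger receptor for the same ligand. These are 3 of the 18193 genes measured. Their values are those of every probe set annotated to exactly 1 of these symbols, 5 of the 45101 on the array: 1 for Cxcr4, 3 for Cxcl12 and 1 for Ackr3. Cxcr4 was chosen by its measured log2 signals, as one of the strongest differences between mutant and wild type, so its difference is given as a description, without a test. Cxcl12 and Ackr3 entered as its partners and not for their own values.

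RNA came from 5 pools of Wnt9b-/- mesenchyme, called mutant, and 5 pools of Wnt9b+/+ littermate mesenchyme, called wild type, each pool on its own Affymetrix array. The series' design text names the controls Wnt9b+/-; the sample labels were followed here. Each pool held 25 to 30 mesenchymes that had been separated from the ureteric bud by enzyme digestion. The groups therefore share the dissection, and the loss of Wnt9b, a Wnt ligand of the ureteric bud, is in every cell of the mutant embryos' tissue.

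CXCR4 is a G protein-coupled receptor on which CXCL12 acts to guide migrating cells and to support their survival. ACKR3, once named CXCR7, binds the same ligand but works mainly through arrestin, takes the ligand into the cell and so shapes how much of it reaches CXCR4. The axis is known for its part in blood vessel growth, including that of the kidney, and in the homing of blood-forming and germ cells.

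The upstream sequences of the 3 genes are shown because the receptor differed from its ligand and its scavenger receptor in the direction of the difference. Each is the 250 bases before the annotated start in RefSeq on GRCm38.p6, read 5′ to 3′ on the gene's strand. The Cxcr4 window is chr1:128592300-128592549 on the minus strand, that of Cxcl12 is chr6:117168285-117168534 on the plus strand, and that of Ackr3 is chr1:90203730-90203979 on the plus strand. Capitals mark matches to 4 motifs chosen after the values were seen.
Cxcr4: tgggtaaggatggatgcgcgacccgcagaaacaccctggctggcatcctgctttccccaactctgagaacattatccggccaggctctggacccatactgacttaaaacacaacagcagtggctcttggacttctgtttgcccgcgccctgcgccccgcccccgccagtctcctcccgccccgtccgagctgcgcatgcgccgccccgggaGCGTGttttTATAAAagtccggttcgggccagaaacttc
Cxcl12: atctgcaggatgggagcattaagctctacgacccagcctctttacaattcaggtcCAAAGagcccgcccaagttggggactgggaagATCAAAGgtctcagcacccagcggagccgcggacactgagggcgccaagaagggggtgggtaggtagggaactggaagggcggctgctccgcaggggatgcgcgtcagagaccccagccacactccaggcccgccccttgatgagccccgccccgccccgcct
Ackr3: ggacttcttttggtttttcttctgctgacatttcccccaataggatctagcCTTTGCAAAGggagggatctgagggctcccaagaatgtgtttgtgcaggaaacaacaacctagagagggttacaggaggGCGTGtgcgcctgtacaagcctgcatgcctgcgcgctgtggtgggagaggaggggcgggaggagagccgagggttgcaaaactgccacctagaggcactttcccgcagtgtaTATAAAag
The motifs were CTTTGAT, the binding sequence of the TCF/LEF factors of Wnt signalling, its shorter core CTTTG, the hypoxia response core written ACGTG or GCGTG, each on both strands, and the TATA box TATAAA on the sense strand. CTTTGAT contains CTTTG, so a match to the first is also a match to the second. CTTTGAT occurred in 3.21% of 32851 such windows, CTTTG in 48.6%, the hypoxia core in 38.6% and TATAAA in 7.59%.

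The Cxcr4 window held GCGTG at 39 to 35 bases before the start and TATAAA at 30 to 25 bases, with neither form of the TCF/LEF sequence. The Cxcl12 window held ATCAAAG, which is CTTTGAT on the other strand, at 163 to 157 bases before the start, and a further core match at 195 to 191 bases. The Ackr3 window held core matches facing each other at 199 to 195 and 194 to 190 bases, GCGTG at 120 to 116 bases and TATAAA at 8 to 3 bases. These matches describe the letters in the windows and are not evidence of binding.

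Facts of the whole set of arrays bear on what follows. Array medians lay between 5.99 and 6.30 as log2(signal + 1), the unit named log2 signal from here on, and the arrays correlated pairwise at 0.915 to 0.954. The 18S ribosomal RNA control set 4 arrays (2 of each group, signals of 1975 to 2587) apart from the other 6 (92.4 to 322), and values within each set are given below. Of 18193 genes, 1 was called at an adjusted p under 0.05 (limma, Benjamini-Hochberg), a background of 0.0055%. The called gene was none of Cxcr4, Cxcl12 and Ackr3. With a block for the arrays that are alike in the wording of their titles, 0 were called (smallest adjusted p = 0.183), and 1116 had an unadjusted p under 0.05, against 999 without it. Wnt9b itself differed by -0.24 (SE 0.24, limma adjusted p = 0.996) on the brighter of its 2 probe sets and by -0.51 with their mean, in tissue from which the bud had been removed, and the position of its probe sets relative to the mutated part of the gene was not established here. On the brighter one the difference was -0.76 among the high-18S arrays, +0.11 among the rest, -0.04 without mutant replicate 5 and -0.37 without mutant replicate 2. The mesenchyme markers Six2 and Foxd1 had mean log2 signals of 10.45 and 11.18 in wild type and 9.79 and 11.35 in mutant, and the epithelial markers Krt18 and Epcam were still measured, at 9.19 and 8.45 in wild type.

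Cxcr4, the receptor, was lower on every mutant array than on any wild-type array. The wild-type signals of probe set 1448710_at were 161, 204, 206, 151 and 134 for replicates 1 to 5. The mutant signals were 72.2, 91.5, 59.0, 37.1 and 75.3. The lowest wild-type array, replicate 5, thus stood above the highest mutant array, replicate 2. The mean signal was 171 ± 32.3 (SD, n = 5) for wild type and 67.0 ± 20.3 (SD, n = 5) for mutant arrays. On the log2 signal scale the means were 7.41 ± 0.27 and 6.03 ± 0.49, a difference of -1.38 (SE 0.24, 95% interval -1.91 to -0.85), or 2.60-fold lower. It ranked 59 among 18193 genes ordered from the most negative difference. Groups that did not overlap, with the mutant lower, occurred for 0.555% of all genes. Nothing is read from the interval, the rank or this share, because the gene was chosen for this contrast. The interval takes no account of that choice. The pools hold several cell types, and in bulk RNA fewer cells of a type and less RNA per cell cannot be told apart.

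**Figure D1:**
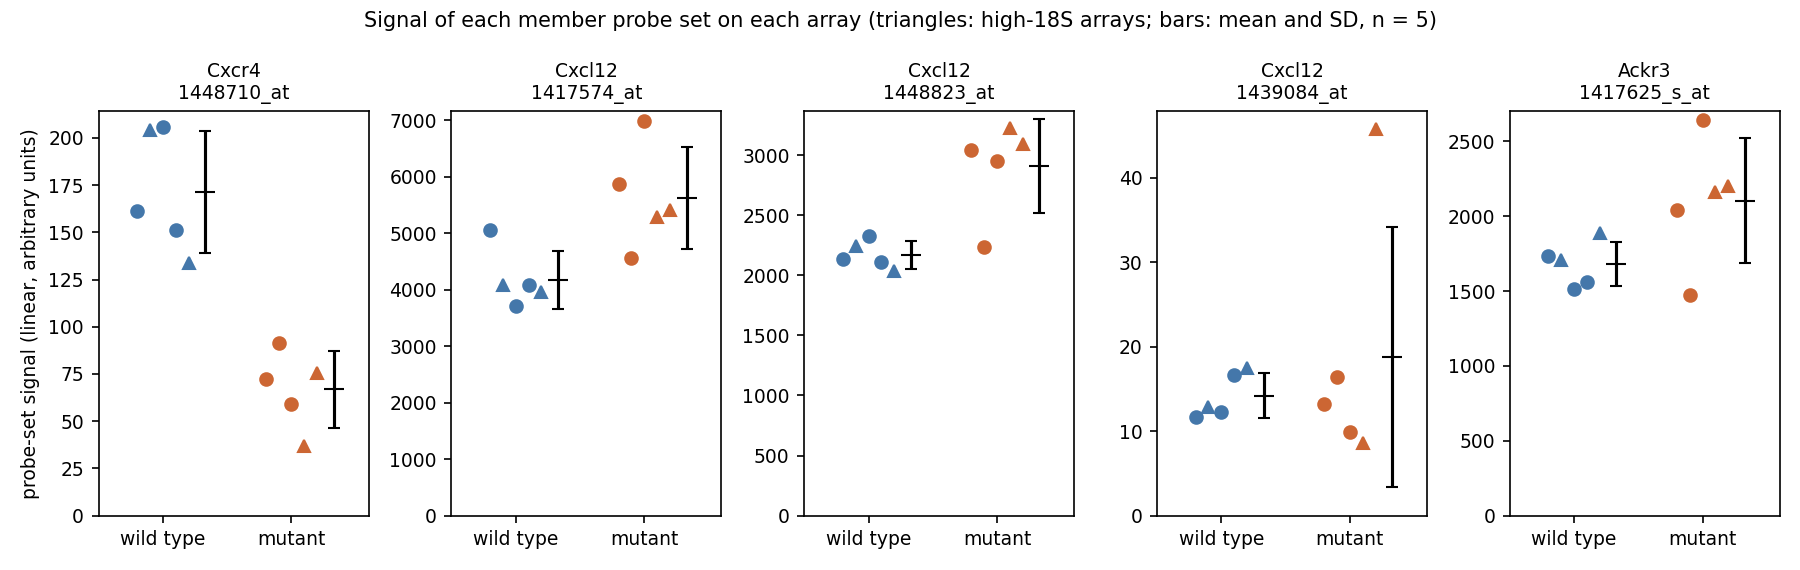
Linear signal of the 5 probe sets of Cxcr4, Cxcl12 and Ackr3 on each array, wild type in blue and mutant in orange, points in the order of replicates 1 to 5 and triangles for the 4 arrays with high 18S signal; black bars are the mean and SD of 5 arrays. All mutant points of Cxcr4 lie below all wild-type points, while the groups overlap for every probe set of Cxcl12 and Ackr3.

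Cxcr4 lay on average above the array medians in wild type and near them in the mutant. The size of its difference moved with the pseudocount, to -1.19 with 16 in place of 1. The difference was -1.62 (SE 0.46) within the arrays of high 18S signal and -1.22 (SE 0.23) within the others. Because the groups were apart over all arrays, no part or pair of them could overlap or change sign. In the 3 pairs of arrays whose titles share wording, Cxcr4 differed by -1.06 from wild-type replicate 4 to mutant replicate 1, by -1.43 from wild-type replicate 2 to mutant replicate 5 and by -1.82 from wild-type replicate 5 to mutant replicate 4. The mutant arrays were also the more variable, with a coefficient of variation of 30.4% of the signal against 18.9% in wild type. The lowest signal, 37.1 on mutant replicate 4, contributed to this, and without that array the difference was -1.19.

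Cxcl12, the ligand, was at higher values in the mutant on both of its bright probe sets, without passing the test over all genes. The signals of 1417574_at, its brightest probe set, were 5053, 4093, 3707, 4090 and 3959 on wild-type replicates 1 to 5 and 5874, 4567, 6990, 5280 and 5419 on mutant replicates 1 to 5. The groups overlapped through wild-type replicate 1, which stood above mutant replicate 2. The log2 signal was 12.02 ± 0.17 (SD, n = 5) for wild type and 12.44 ± 0.23 (SD, n = 5) for mutant arrays, a difference of +0.42 (SE 0.14, 95% interval 0.11 to 0.73), or 1.34-fold higher, with an adjusted p of 0.746 (limma, Benjamini-Hochberg over all genes). The interval is for this gene taken alone.

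The second bright probe set of Cxcl12, 1448823_at, had signals of 2133, 2242, 2330, 2112 and 2032 in wild type and 3041, 2235, 2953, 3228 and 3091 in mutant, again in replicate order. Of the mutant arrays 4 lay above all wild-type arrays, and mutant replicate 2 lay among them. The log2 difference was +0.41 (SE 0.14), close to that of the first probe set, with a limma adjusted p of 1.00 over all probe sets. The probe set 1439084_at was near the bottom of the scale, with signals of 11.7 to 17.5 in wild type and 8.58 to 45.7 in mutant, and differed by +0.13 (SE 0.39). It is too dim to add to the account of the ligand.

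Cxcl12 differed by +0.41 (SE 0.14) among the high-18S arrays and by +0.43 (SE 0.23) within the others. In the 3 pairs with shared title wording it was higher in the mutant each time, by 0.52, 0.40 and 0.42. Leaving out mutant replicate 2 gave +0.49, and leaving out wild-type replicate 1 also gave +0.49. In both cases the groups were necessarily apart, because the overlap came from these arrays alone.

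Ackr3, the scavenger receptor, was also at higher values on most mutant arrays, and the test did not call it. The signals of 1417625_s_at were 1732, 1705, 1517, 1558 and 1885 in wild type and 2041, 1477, 2641, 2164 and 2201 in mutant, in replicate order. Mutant replicate 2 was the lowest of all 10 arrays, and the other 4 mutant arrays stood above every wild-type array. The log2 signal was 10.71 ± 0.13 (SD, n = 5) for wild type and 11.02 ± 0.31 (SD, n = 5) for mutant arrays, a difference of +0.31 (SE 0.16, 95% interval -0.04 to 0.65, limma adjusted p = 0.941 over all genes). Without mutant replicate 2 the difference was +0.43, and the groups were necessarily apart, because the overlap came from that array alone. Without mutant replicate 3, the highest array, the difference was +0.22. Among the high-18S arrays it was +0.28 and among the rest +0.32, and in the pairs with shared title wording it was 0.39, 0.37 and 0.20, always higher in the mutant.

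The receptor differed in the opposite direction from its ligand and its scavenger receptor in all settings tried. Differences ran from -1.62 to -1.19 for Cxcr4, from +0.13 to +0.49 for Cxcl12 and from +0.22 to +0.43 for Ackr3. This is a description only, since Cxcr4 was chosen for its difference and all settings reuse the same arrays. Cxcl12 and Ackr3 were not called and ranked 1898 and 2842 of 18193 from the most positive difference. Of all genes, 54.9% were higher in the mutant. The lowest value for Cxcl12 came from its dim probe set. The median difference over all genes stayed between -0.01 and +0.05 in these settings. Levels of the 3 genes are not set against one another, because the signals of different probe sets are not on a common scale.

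**Figure D2:**
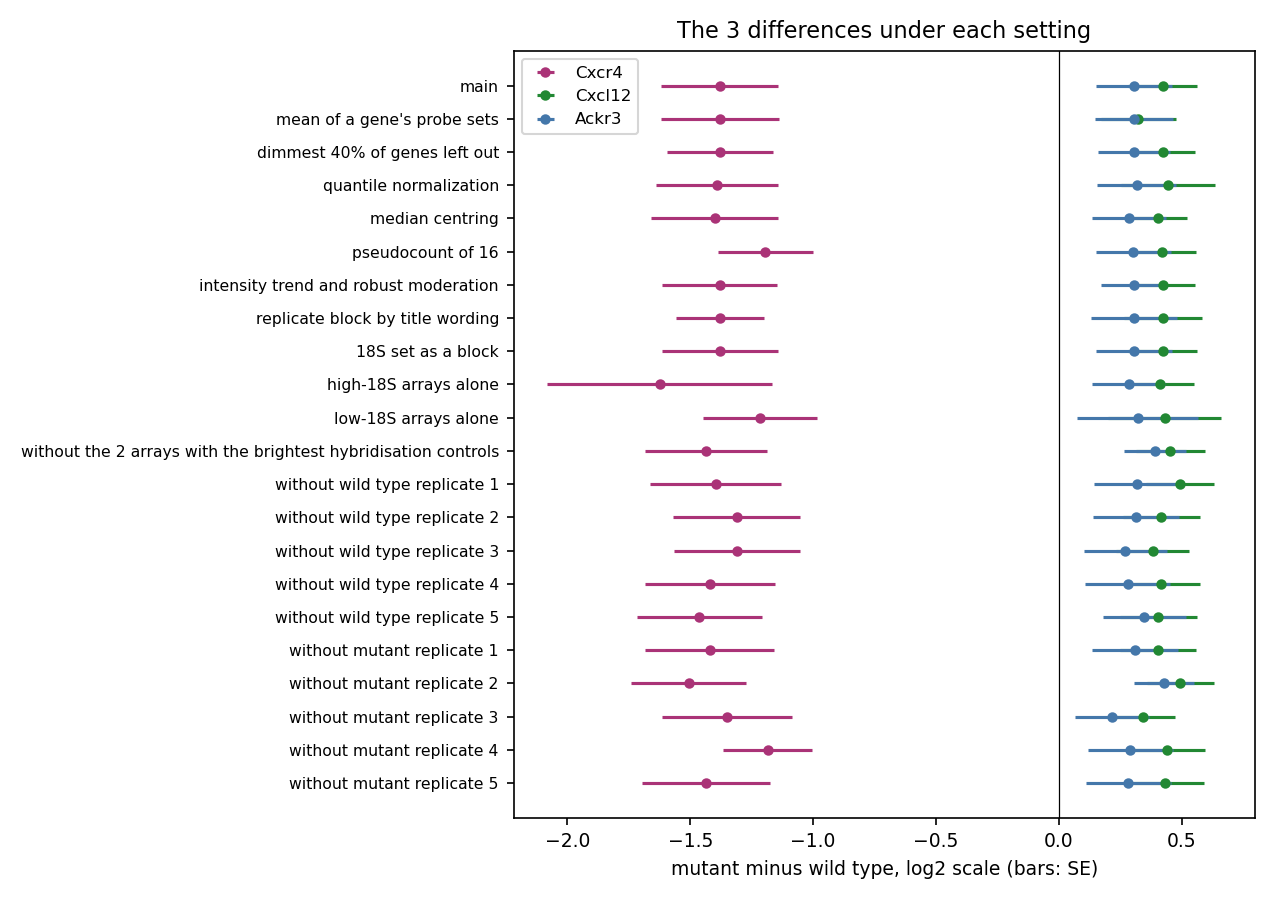
Mutant minus wild-type difference on the log2 scale with its SE for Cxcr4, Cxcl12 and Ackr3, under the main setting and each alternative that gives 1 value for a gene. Cxcr4 stays on the negative side and the other two on the positive side in each row.

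How the 3 genes varied among arrays of the same group was compared through each array's deviation from its group mean, which does not use the contrast between groups. For Cxcl12 and Ackr3 the deviations were positively related before adjustment (Pearson's r = 0.73 over 10 arrays, exact permutation p = 0.0428 within groups, two-sided, 0.128 after Benjamini-Hochberg adjustment over the 3 pairs of genes). Spearman's rho was 0.47 (exact permutation p = 0.212, adjusted 0.318), so the relation did not pass by either measure after adjustment. Without mutant replicate 3 and wild-type replicate 1, the arrays farthest from the median deviation of Cxcl12, r was 0.73. Without mutant replicates 2 and 3, whose deviations of Cxcl12 from the group mean were the largest in size, it was 0.19. Without mutant replicate 2 alone or mutant replicate 3 alone it was 0.59. The size of r thus depended on those 2 arrays together. Leaving out both also narrows the range of Cxcl12, so 0.19 does not settle whether the other arrays share the relation. The values of 0.19 and 0.59 were added after the data were seen. Mutant replicate 2 had the lowest deviation of both genes, -0.29 for Cxcl12 and -0.49 for Ackr3, and the highest of Cxcr4, +0.50.

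Cxcr4 and Ackr3 deviated in opposite directions without passing the test (r = -0.54, exact permutation p = 0.232, adjusted 0.347; rho = -0.61, exact permutation p = 0.0819, adjusted 0.246; r = -0.46 without mutant replicates 2 and 4). For Cxcr4 and Cxcl12 r was -0.26 (exact permutation p = 0.532, adjusted 0.532) and rho -0.26 (exact permutation p = 0.511, adjusted 0.511), and r was -0.33 without mutant replicates 2 and 4. The arrays of a group are too few for a value within each 18S set.

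**Figure D3:**
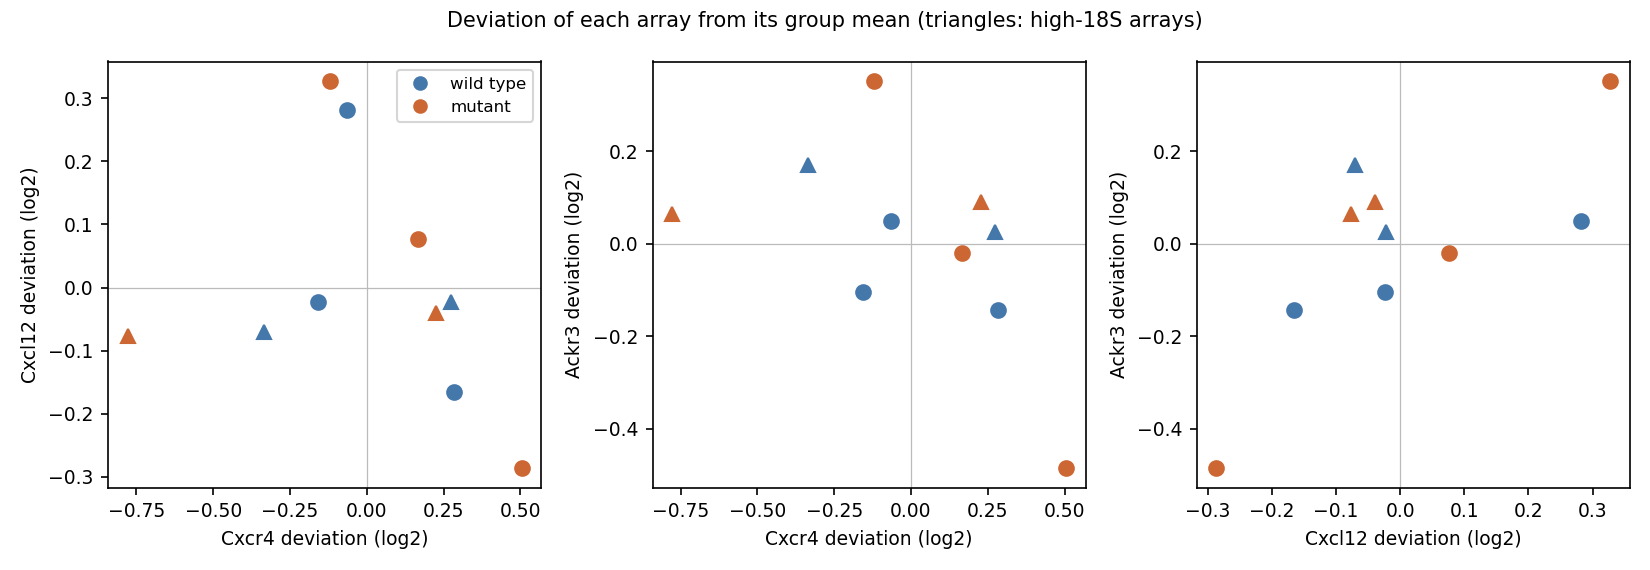
Deviation of each array from its group mean in log2 signal for the 3 pairs of genes, wild type in blue, mutant in orange, triangles for the arrays with high 18S signal. In the panel of Cxcl12 and Ackr3 (r = 0.73) mutant replicate 2 is the point at the lower left and mutant replicate 3 that at the upper right; r is 0.19 without them.

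The genes whose log2 signal followed Cxcr4 most closely over the 10 arrays, among 10563 genes outside the dimmest 40%, were Notum, Wnt4, Cldn9, C1qtnf12 and Ung. Pearson's r with Cxcr4 was 0.95, 0.95, 0.95, 0.93 and 0.93, and Spearman's rho was 0.93, 0.95, 0.94, 0.89 and 0.87. These values carry no p, since the genes were picked for them, and they contain the split between the groups, which do not overlap for Cxcr4. Between deviations from the group means r was 0.80 for Notum, a secreted inhibitor of Wnt ligands, 0.74 for Wnt4, the Wnt ligand that drives mesenchyme into epithelium, 0.77 for Cldn9, a tight junction claudin, 0.64 for C1qtnf12, a secreted protein of the C1q and TNF family, and 0.76 for Ung, the uracil-DNA glycosylase of base excision repair.

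Wnt4 had signals of 493, 553, 558, 505 and 484 on wild-type replicates 1 to 5 and 343, 270, 199, 186 and 253 on mutant replicates 1 to 5. Notum had signals of 139, 156, 195, 177 and 133 in wild type and 80.6, 117, 71.3, 50.7 and 65.8 in mutant. As for Cxcr4, mutant replicate 4 was the lowest array for both and the highest wild-type array was replicate 3. The groups did not overlap for either gene. The log2 differences were -1.08 (SE 0.17) for Wnt4, -1.08 (SE 0.21) for Notum and -1.04 (SE 0.20) for Cldn9, each smaller than that of Cxcr4, and these differences were not tested against one another.

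**Figure D4:**
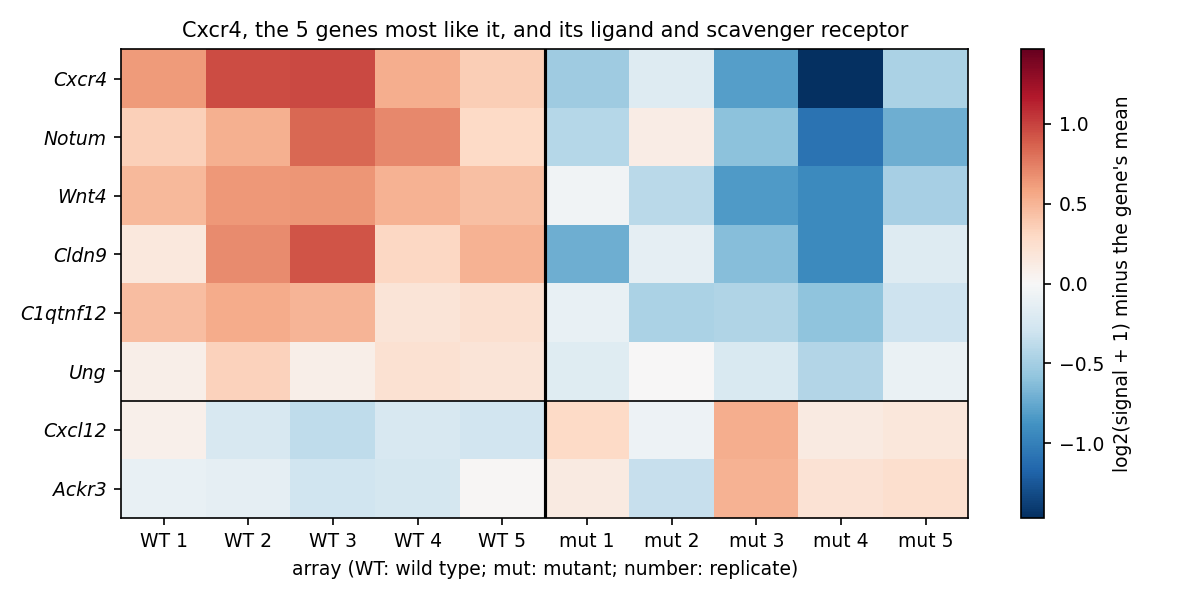
Log2 signal minus the gene's mean over the 10 arrays, as colour, for Cxcr4, the 5 genes with the highest r to it, Cxcl12 and Ackr3; wild-type arrays are left of the black line and mutant arrays right of it. Mutant replicate 4 is the darkest blue cell of Cxcr4, and Cxcl12 and Ackr3 show the opposite colours with smaller differences.

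Ranked by deviations from the group means alone, the genes most like Cxcr4 were Asl, Gtf2i and Hoxa11 (r = 0.94 each), with differences between the groups of +0.12, +0.07 and +0.05. That of Gtf2i was -0.25 averaged over its probe sets, and that of Hoxa11 was -0.01 without mutant replicate 2. The order of genes by likeness to Cxcr4 thus depended on whether the split between groups was included. For Cxcl12 the genes most like it in log2 signal were Angptl4, Rilpl2, Rcn3, Paqr8 and C1qa, with r of 0.91 to 0.93, where C1qa encodes a complement subunit made by macrophages. For Ackr3 they were Evi2a, Ikbip, Fcna, Tpgs2 and Lyrm2, with r of 0.92 to 0.96, where Fcna encodes a ficolin of innate immunity. By deviations they were Rsu1, Tes3-ps and Zfyve9 for Cxcl12 (r from 0.95 to 0.96) and Utp11, Snf8 and Evi2a for Ackr3 (r from 0.96 to 0.98).

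The machinery that carries the signal inside the cell was compared next, as a list of G protein subunits, arrestins, receptor kinases and the ubiquitin ligase of CXCR4. Of 12 measured members 5 were lower and 7 higher in the mutant (median difference +0.02, against +0.02 over all genes), and 0 were called by limma, 1 having an unadjusted p under 0.05 where 5.49% of all genes did, 2.08% lower and 3.41% higher. Over all genes 45.1% were lower and 54.9% higher. Arrb1, which encodes beta-arrestin 1, was the member with the smallest p, at 7.68 ± 0.19 (SD, n = 5) for wild type and 7.98 ± 0.11 in mutant, a difference of +0.30 (SE 0.12, limma adjusted p = 0.880), which was +0.19 without mutant replicate 2 and wild-type replicate 3, whose hybridisation controls were brightest. The other beta-arrestin, Arrb2, differed by +0.06 (SE 0.11). Of the receptor kinases, which mark active receptors for arrestin, Grk5 differed by -0.26 (SE 0.12), Grk3 by +0.16 (SE 0.14) and Grk6 by 0.00 (SE 0.20). Grk3 was at +0.56 averaged over its probe sets, +0.07 without wild-type replicate 3 and +0.04 without that array and mutant replicate 2, and Grk5 was at -0.17 averaged over its probe sets.

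The inhibitory G protein alpha subunits, through which CXCR4 signals, showed differences of +0.17 for Gnai2, +0.03 for Gnai1 and -0.01 for Gnai3, all within their SE. Gna13, of another G protein class, differed by -0.16 (SE 0.16), and the beta subunits Gnb1 and Gnb2 by -0.02 and +0.21. Gna13 was at -0.05 without mutant replicate 1, -0.10 without wild-type replicate 5 and -0.05 among the high-18S arrays. Gnb2 was at +0.06 among the high-18S arrays, +0.11 without mutant replicate 2 and +0.09 without wild-type replicate 3 as well. Gnai2 was at +0.04 without wild-type replicate 4, +0.08 without mutant replicate 4 and +0.27 without the pair with the brightest hybridisation controls. Itch, the ubiquitin ligase that sends CXCR4 to the lysosome, differed by -0.06 (SE 0.16). The groups overlapped for each of these 12 genes. The differences of Arrb2, Gnai1, Gnai3, Gnb1, Grk6 and Itch, all near 0, changed sign in at least 1 of 21 other settings.

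**Figure D5:**
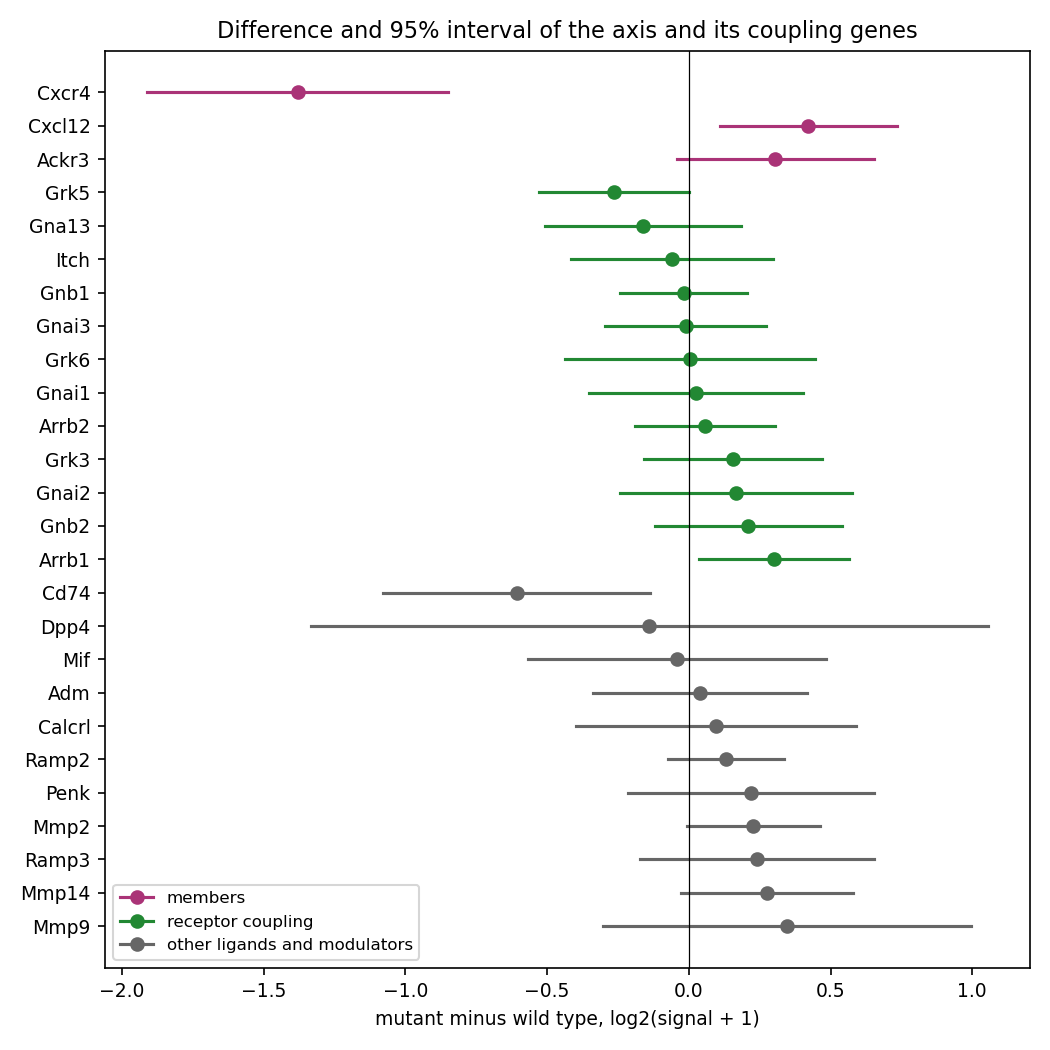
Mutant minus wild-type difference in log2 signal with its 95% interval for Cxcr4, Cxcl12 and Ackr3 (purple), the receptor coupling genes (green) and the other ligands and modulators (grey). Cxcr4 lies at -1.38, below every other gene plotted, and most of the intervals of the coupling genes include 0. Cxcr4 was chosen for its difference, and its interval takes no account of that choice.

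Among other ligands, proteases and modulators of the axis, 3 of 11 measured members were lower and 8 higher (median +0.13), where 54.9% of all genes were higher. By limma 0 were called, and beside 5.49% of all genes, 1 of these members had an unadjusted p under 0.05. That one was Cd74, the receptor for the cytokine MIF and the invariant chain of MHC class II. Its signals were 138 to 187 in wild type and 57.3 to 122 in mutant, without overlap, a difference of -0.61 (SE 0.21, limma adjusted p = 0.793) that was -0.95 among the high-18S arrays and -0.38 among the rest. Mif itself, another ligand of CXCR4, differed by -0.04 (SE 0.24).

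The matrix metalloproteases Mmp2 and Mmp14, members of a family that can cleave CXCL12, differed by +0.23 (SE 0.11) and +0.28 (SE 0.14), and Dpp4, which inactivates CXCL12 by trimming its end, by -0.14 (SE 0.54). Adm, encoding adrenomedullin, a peptide that ACKR3 also takes up, differed by +0.04 (SE 0.17), and its receptor Calcrl by +0.10 (SE 0.22). Ramp2, the partner of that receptor, was the other member whose groups did not overlap, at +0.13 (SE 0.09), and is named because its groups were seen to be apart. Groups that did not overlap, in either direction, occurred for 1.21% of all genes. Penk, source of opioid peptides that ACKR3 binds, differed by +0.22 (SE 0.19).

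Other chemokine ligands showed no call. Of 31 measured, 10 were lower and 21 higher (median +0.15), where 54.9% of all genes were higher. Beside 5.49% of all genes, 1 of these ligands had an unadjusted p under 0.05 by limma. It was Pf4, the platelet chemokine CXCL4, at 476 to 509 in wild type and 507 to 760 in mutant (difference +0.34, SE 0.14, limma adjusted p = 0.880), and at +0.19 among the high-18S arrays and +0.45 among the rest. Ccl3 and Ppbp, an inflammatory chemokine and another platelet chemokine, came next at +0.80 (SE 0.45) and +0.37 (SE 0.21), with Ccl3 at +0.44 without wild-type replicate 2 and Ppbp at +0.21 among the high-18S arrays. Cxcl11, the other chemokine that ACKR3 binds, differed by +0.41 (SE 0.64).

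Of 19 other chemokine receptors measured, 8 were lower and 11 higher (median +0.10), where 54.9% of all genes were higher. By limma 0 had an unadjusted p under 0.05, beside 5.49% of all genes. Ackr2, a scavenger of CC chemokines, differed by +0.40 (SE 0.19) but by -0.11 among the high-18S arrays, +0.73 among the rest and +0.17 averaged over its probe sets. Ccr2 and Cxcr2, receptors of monocytes and neutrophils, differed by +0.39 (SE 0.25) and -0.70 (SE 0.52). Ccr2 was at +0.02 among the high-18S arrays, +0.13 averaged over its probe sets and +0.23 without wild-type replicate 3. The dim Cxcr2 was at -0.28 with a pseudocount of 16, -0.44 without mutant replicate 2 and -0.44 without mutant replicate 5.

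Effectors of directed migration gave 4 of 14 lower and 10 higher (median +0.07), where 54.9% of all genes were higher. By limma 0 had an unadjusted p under 0.05. Rac2, a small GTPase of blood cells, differed by +0.35 (SE 0.17) and by +0.02 averaged over its probe sets, Pxn, the adhesion adaptor paxillin, by +0.23 (SE 0.16), and Dock2, an activator of Rac in leukocytes, by +0.72 (SE 0.52), or +0.07 among the high-18S arrays, +0.23 averaged over its probe sets and +0.27 without wild-type replicate 3. Pxn was at +0.15 without wild-type replicate 4. Rac1, Rhoa and Cdc42, the small GTPases used by most cells, lay between -0.05 and +0.04. Over the 5 lists, 3 of 87 measured members had an unadjusted p under 0.05 in either direction, beside 5.49% of all genes, and 2 had groups that did not overlap, beside 1.21%.

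Markers of nephron progenitors, the cap mesenchyme cells, moved in the same direction as Cxcr4. All 11 measured members were lower in the mutant (median -0.73, against +0.02 over all genes), with 7 whose groups did not overlap (0.555% of all genes in that direction), 9 with an unadjusted p under 0.05 (2.08% of all genes) and 0 called by limma. Their summed signal was 9180 to 11124 on wild-type arrays and 4251 to 8079 on mutant arrays. Uncx and Itga8 had the smallest p, at -1.28 (SE 0.22) and -0.77 (SE 0.15), and Osr1 differed least, by -0.04 (SE 0.27). This list, like the other marker lists, was chosen with earlier results of these data known. Its counts are therefore a description and no separate evidence. The part of the lower progenitor markers in the Cxcr4 difference was not tested.

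Markers of renal stroma, endothelium and macrophages were mostly on the other side, by smaller median differences. In the stroma list 8 of 10 were higher (median +0.14), with summed signals of 21333 to 25590 in wild type and 21660 to 29766 in mutant. Pdgfra and Tbx18 had the smallest p there, at +0.36 (SE 0.11, +0.18 averaged over its probe sets) and +0.46 (SE 0.16). All 12 endothelial markers were higher (median +0.14), summed 3611 to 4715 in wild type and 3762 to 5043 in mutant, with Cdh5 at +0.26 (SE 0.14) and Cldn5 at +0.23 (SE 0.13). All 12 macrophage and leukocyte markers were higher (median +0.34), summed 1670 to 2393 in wild type and 1584 to 3133 in mutant, with C1qa at +0.73 (SE 0.27) and Tyrobp at +0.38 (SE 0.20). Cdh5 was at +0.16 without mutant replicate 4, and Tyrobp at +0.22 without mutant replicate 1. None of these was called by limma over all genes, and 2 stromal, 0 endothelial and 1 macrophage marker had an unadjusted p under 0.05, all higher. Over all genes 54.9% were higher, and 3.41% were higher with an unadjusted p under 0.05. The groups did not overlap for 1 stromal marker, Pdgfra, with the mutant higher, beside 0.654% of all genes in that direction. The summed signals of each of these lists overlapped between the groups. Their part in the Cxcl12 and Ackr3 differences was not tested.

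Ureteric bud markers were lower in 6 of 11 (median -0.06, summed 2059 to 3675 in wild type and 1609 to 4428 in mutant), with Wnt11 at +0.26 and Gata3 at +0.19. Wnt11 was at +0.16 without mutant replicate 2 and +0.12 among the high-18S arrays, and Gata3 at +0.09 without wild-type replicate 3, +0.04 without mutant replicate 2 as well and +0.05 among the high-18S arrays. Neuron and neural crest markers were higher in 4 of 6 (median +0.18, summed 715 to 1016 and 880.0 to 1234), led by Stmn2 at +0.67 (SE 0.19) and Foxd3 at +0.99 (SE 0.32), the latter at +0.64 with a pseudocount of 16. Erythroid markers were higher in 5 of 7 (median +0.09, summed 26642 to 55224 and 29326 to 48684), led by Gata1 at +0.56 (SE 0.27) and Hba-a1 at +1.09 (SE 0.55, or +0.54 with a pseudocount of 16). By limma 0 members of these 3 lists were called. Of the neuron and neural crest markers 2 had an unadjusted p under 0.05, both higher, beside 3.41% of all genes. The groups did not overlap for 1 of them, Stmn2, beside 0.654% of all genes in that direction. Of the ureteric bud and erythroid markers 0 had such a p and 0 had groups that did not overlap. No marker was listed at 0 on any array, and the summed signals of these 3 lists overlapped between the groups.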

How the data were processed

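The authors deposited 1 table of probe-set intensities on a linear scale for 10 arrays; no source used here names the summary algorithm. The trimmed mean (2% off each end) was 250.0 on every array, so the arrays had been scaled. Signals were used as log2(signal + 1). Of 45101 probe sets 64 were controls; 34945 had 1 gene symbol, 932 several and 9160 none in the platform annotation used, and symbols were updated to RefSeq names for 34741. The brightest probe set stood for each of 18193 genes.

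The test of mutant against wild type used limma 3.58.1 under R 4.3.3 (lmFit, eBayes, two-sided, Benjamini-Hochberg over all genes, called under 0.05). On simulated data with 18193 genes and 100 changed at each size, 56% of changes of 1 and 71% of changes of 2 on the log2 scale were called, with 8 false calls. The simulated noise was independent between genes and arrays, which that of the real arrays need not be. These shares therefore check the code and do not give the power for these data. The limma p-values set the difference between the groups against the spread among arrays of a group. Each pool was on its own array, so variation of pools and of arrays cannot be told apart in that spread. The number of arrays limits the precision.

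The members, lists, tests and alternatives were chosen with earlier results of these data known. Of 92 entries in the 5 pathway lists 87 were measured. Named genes were all probe sets of the 3 genes, Wnt9b, the receptor coupling list, the 3 smallest p of each other pathway list and the 2 smallest of each cell type list, and the genes most like each member; further list members are named by role, chosen after their values were seen. Replicate numbers only name arrays. For 3 pairs of arrays with shared title wording, deviations from the group means correlated at 0.27, 0.35 and 0.40, against a median of -0.08 for the other pairs of a wild-type and a mutant array, so wording was run as a block. Alternatives were another probe-set rule, a filter on dim genes, quantile normalization, median centring, a pseudocount of 16, trended robust moderation, blocks, the 18S sets alone and leaving arrays out.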

Additional observations from a re-analysis of the deposited data

Results flagged for a closer look

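Of 132 groups of 5 values examined for the genes named by rule, 6 held an array set apart from the others by most of the group's range, where chance gives about 6.6. In log2 signal, the Cxcl12 probe set 1448823_at was at 11.13 on mutant replicate 2, against 11.53 to 11.66 on the other mutant arrays. Cd74 was at 5.87 on mutant replicate 5, against 6.78 to 6.94, and Cldn5 at 8.98 on the same array, against 9.31 to 9.40. On wild-type replicate 3 Gnai3 was at 11.99, against 11.46 to 11.51, and Tbx18 at 9.28, against 9.54 to 9.64. Tes3-ps was at 8.13 on wild-type replicate 1, against 7.36 to 7.55.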

How the results depend on the processing

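Cxcr4, chosen for this difference, stayed lower in all 22 alternatives, and without 1 array its difference ran from -1.51 to -1.19. The alternatives reuse the same arrays, and groups apart over all of them stay apart in any part. The sign and the lack of overlap are therefore no further support. Cxcl12 (24 alternatives, +0.34 to +0.49 without 1 array, adjusted p from 0.398 to 1.00) and Ackr3 (22 alternatives, +0.22 to +0.43, adjusted p from 0.607 to 1.00) stayed higher and uncalled. The replicate block by title wording left the 3 differences at -1.38, +0.42 and +0.31 and changed no call of Cxcl12 or Ackr3. The count of called genes, 1 in the main setting, was 0 with the mean of probe sets, either block, either 18S set alone or without mutant replicate 2 and wild-type replicate 3, 6 without the dimmest 40% of genes, 10 with trended robust moderation, 2 over single probe sets, and 0 to 2 without 1 array. The count of pathway members with an unadjusted p under 0.05, 3 of 87, was 6 with the mean of probe sets, 5 without dim genes, 5 with trended moderation, 7 with the 18S block, and 1 without mutant replicate 3 to 5 without mutant replicate 1; it was not run over single probe sets. The causes were not tested. No detection calls were used, so a floor is unknown, also for the mutant signals of Cxcr4.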
